A study of Mus musculus with 12 samples.

Results

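Oxidative phosphorylation passes electrons along complexes I to IV of the inner mitochondrial membrane and uses the proton gradient they build to drive ATP synthase, complex V. Its protein subunits come from both genomes of the cell: most are encoded in the nucleus and imported, and a small core of complexes I, III, IV and V is encoded by mitochondrial DNA, which is transcribed as long precursors that are cut into single mRNAs. In macrophages, activation by bacterial lipopolysaccharide (LPS) is known to move energy metabolism away from respiration and towards glycolysis. The mRNAs of these subunits were followed here in RAW264.7, an established mouse cell line that resembles macrophages.

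The members were the genes named as subunits of complexes I, III, IV and V (Nduf, Uqcr, Cox4 to Cox8 and Atp5 names, and the mitochondrial genes ND1 to ND6, ND4L, CYTB, COX1 to COX3, ATP6 and ATP8) that were listed at 1 FPKM or more in at least 3 of 12 libraries. FPKM counts sequenced fragments scaled to transcript length and to library size. Of 31719 distinct gene symbols, 95 matched by name and 88 met the expression rule, 75 of them nuclear-encoded and 13 mitochondrially encoded. The nuclear set held 35 members of complex I, 8 of complex III, 15 of complex IV with Ndufa4, and 17 of complex V. The mitochondrial set held 7, 1, 3 and 2 members of the same complexes. The members were chosen by name and selected on these FPKM values without regard to group, and 87 of the 88 members were at 1 FPKM or more in all 12 libraries. Of the members, Cox4i2 had the lowest peak level, 2.00 FPKM, and of the 7 genes left out Ndufb4c had the highest peak, 0.764 FPKM. Ndufb2, a complex I subunit gene, was left out because it was listed at 0.27 to 0.57 FPKM.

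The cells were wild type and fell into 4 groups of 3 libraries each, made from total RNA. LPS+anti-CD36 cells received 50 ng/ml LPS and an antibody to the scavenger receptor CD36 at a dilution of 1 in 100, LPS cells received LPS at the same concentration alone, anti-CD36 cells received the antibody alone at the same dilution, and untreated cells received neither. The labels name no isotype control antibody, treatment time or batch. They leave out whether replicate libraries stem from different cultures, so p-values measure the spread between these libraries, which may be technical. Depth, worked out from the steps between low FPKM values, was 30070449 to 54137808 fragments per library. Of 9 macrophage marker genes, 8 were expressed, with Mrc1 near 0, and all 27 measured markers of other cell types stayed under 1 FPKM in every library (highest 0.761 FPKM, 13 of 27 at 0 everywhere). The sample descriptions also carry the name of a single-cell platform with a number that runs up over the LPS and LPS+anti-CD36 libraries, while the extraction protocol is one for bulk total RNA and the table has 1 column per library. They were treated as bulk samples, in which fewer mitochondria and less mRNA per mitochondrion cannot be told apart. As FPKM are scaled to library size, cell number and total mRNA per cell are not measured.

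The mitochondrial set was far more abundant per length than the nuclear set. Summed over the 13 mitochondrial mRNAs, the level was 26241, 26758 and 26806 FPKM in LPS+anti-CD36 libraries, 28516, 26554 and 27342 FPKM in LPS libraries, 41387, 36425 and 40102 FPKM in anti-CD36 libraries, and 40133, 39063 and 32942 FPKM in untreated libraries. All 6 libraries with LPS lay below all 6 without it. Mitochondrial mRNA made up 7.26 to 7.72% of all FPKM in LPS+anti-CD36 libraries, 8.16 to 8.77% in LPS libraries, 11.0 to 11.7% in anti-CD36 libraries and 11.0 to 12.0% in untreated libraries.

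Summed over the 75 nuclear mRNAs, the level was 7756, 7030 and 6321 FPKM in LPS+anti-CD36 libraries, 6990, 5292 and 4643 FPKM in LPS libraries, 9350, 7316 and 8000 FPKM in anti-CD36 libraries, and 8556, 7053 and 5624 FPKM in untreated libraries. These nuclear sums overlapped in each of the 4 comparisons made below. Their spread within a group was wide, and the summed level of 81 cytosolic ribosomal protein genes, whose mRNAs are also short, spread in the same way: 41194 to 49739 FPKM in LPS+anti-CD36 libraries, 30725 to 43982 FPKM in LPS libraries, 41284 to 51087 FPKM in anti-CD36 libraries and 31528 to 47534 FPKM in untreated libraries. The part of library quality or transcript length in this spread was not tested.

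The ratio of the mitochondrial to the nuclear sum was 3.81 ± 0.429 in LPS+anti-CD36 cells, 5.0 ± 0.905 in LPS cells, 4.81 ± 0.329 in anti-CD36 cells and 5.36 ± 0.603 in untreated cells (SD, n = 3 each). LPS+anti-CD36 libraries, at 3.38, 3.81 and 4.24, lay below the anti-CD36 libraries, at 4.43, 4.98 and 5.01, while LPS libraries, at 4.08, 5.02 and 5.89, overlapped the untreated ones, at 4.69, 5.54 and 5.86. On the log2 scale the ratio differed by -0.34 between LPS+anti-CD36 and anti-CD36 cells and by -0.11 between LPS and untreated cells, where it was 0.026 without LPS replicate 1. It differed by -0.38 between LPS+anti-CD36 and LPS cells, whose libraries overlapped, and by -0.15 between anti-CD36 and untreated cells. Mean mitochondrial sums were 26602 FPKM in LPS+anti-CD36 and 27471 FPKM in LPS cells, and mean nuclear sums were 7036 and 5642 FPKM. These ratios are descriptions and carry no test.

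**Figure D1:**
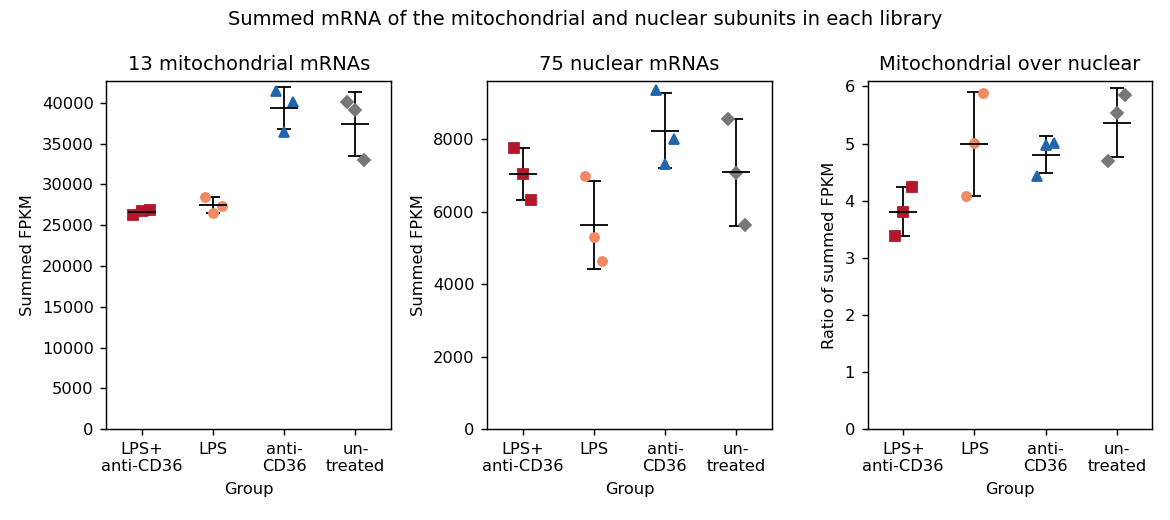
Summed FPKM of the 13 mitochondrial mRNAs (left), summed FPKM of the 75 nuclear mRNAs (middle) and the ratio of the sums (right) in each library, with group on the horizontal axis; points are libraries, horizontal bars are means and error bars are SDs (n = 3). Mitochondrial sums were 26241 to 28516 FPKM in the 6 libraries with LPS and 32942 to 41387 FPKM in the 6 without it, whereas the nuclear sums overlapped between LPS and untreated and between LPS+anti-CD36 and anti-CD36 libraries.

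With LPS alone, 8 of the 13 mitochondrial mRNAs fell and none rose, set against untreated cells. Those that fell encode 6 of the 7 mitochondrial subunits of complex I, cytochrome b of complex III and subunit 8 of ATP synthase. COX1, COX2 and COX3, the mitochondrial subunits of complex IV, were among the 5 that did not pass. Tests were made with limma on log2(FPKM + 1) over 10276 genes, with Benjamini-Hochberg adjustment and a call at an adjusted p under 0.05, and log2 changes below are on that scale. Of all genes tested, 49.8% passed, with 33.1% lower and 16.6% higher, and the median gene moved by -0.14, against medians of -0.42 for the mitochondrial set and -0.32 for the nuclear set. In 10 of the 13 mitochondrial members all LPS libraries lay below all untreated libraries, which held for 32.9% of all genes.

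ND1, a core subunit of complex I at the foot of its membrane arm, showed the widest gap. It had 5045, 4113 and 4199 FPKM in LPS libraries, against 10264, 9412 and 7362 FPKM in untreated libraries. The groups did not overlap, and the log2 change was -1.01 (SE 0.15, limma adjusted p = 0.000182). CYTB, the cytochrome b of complex III that carries electrons between its quinone sites, had 3686, 3366 and 3378 FPKM in LPS libraries, against 6328, 6097 and 5219 FPKM in untreated libraries. Every LPS library was again below every untreated one, with a log2 change of -0.75 (SE 0.10, limma adjusted p = 7.75e-05). ND2, a proton-pumping subunit of complex I, had 2195, 1790 and 1712 FPKM in LPS libraries, against 3777, 3656 and 2820 FPKM in untreated libraries. Its log2 change was -0.84 (SE 0.14, limma adjusted p = 0.000323). ND3, ND4L and ND4, which are further membrane subunits of complex I, changed by -0.90, -0.79 and -0.42 (limma adjusted p = 0.00226, 0.011 and 0.00373). The calls for ND1, ND2, ND3, ND4L and CYTB held in every alternative tried.

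The changes of ND5 (-0.25, limma adjusted p = 0.0458) and ATP8 (-0.73, limma adjusted p = 0.0255) also passed but depended on single libraries. ATP8, a small membrane subunit of ATP synthase, rested on 33, 39 and 26 fragments in LPS libraries, against 122, 56 and 48 in untreated libraries. Its call was lost without LPS replicate 3, untreated replicate 1 or untreated replicate 2 (limma adjusted p 0.0707 to 0.097). The ND5 call was lost on leaving out any of 9 libraries, with limma adjusted p from 0.054 to 0.172, and the count of 8 ranged from 6 to 11 over the libraries left out.

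COX1, the catalytic core subunit of complex IV, had 12604, 12893 and 13560 FPKM in LPS libraries, against 13847, 13892 and 12422 FPKM in untreated libraries. The groups overlapped, and the log2 change was -0.04 (SE 0.10, limma adjusted p = 0.775). COX2, which takes electrons from cytochrome c, had 229, 214 and 205 FPKM in LPS libraries, against 269, 262 and 214 FPKM in untreated libraries. Its log2 change of -0.19 did not pass (SE 0.10, limma adjusted p = 0.13), nor did that of COX3, -0.07 (SE 0.22, limma adjusted p = 0.823). ATP6, the ATP synthase subunit that forms the proton path, and ND6, the one mitochondrial mRNA transcribed from the other strand, had log2 changes of -0.33 and -0.24 that did not pass (limma adjusted p = 0.0565 and 0.0568).

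Because ND1 and COX1 are cut from the same kind of precursor, their levels were also set against each other within each library, where scaling between libraries drops out. ND1 stood at 37.9, 35.7 and 31.5% of COX1 in LPS+anti-CD36 libraries, at 40.0, 31.9 and 31.0% in LPS libraries, at 83.1, 63.4 and 71.1% in anti-CD36 libraries and at 74.1, 67.8 and 59.3% in untreated libraries. CYTB stood at 27.0 to 30.2% of COX1 in LPS+anti-CD36 libraries, at 24.9 to 29.2% in LPS libraries, at 46.4 to 49.0% in anti-CD36 libraries and at 42.0 to 45.7% in untreated libraries. For both ratios the 6 libraries with LPS lay below the 6 without it. COX1 took 43.5 to 47.0% of the mitochondrial sum in LPS+anti-CD36 libraries, 44.2 to 49.6% in LPS libraries, 31.9 to 35.2% in anti-CD36 libraries and 34.5 to 37.7% in untreated libraries. A ratio of this kind shows unequal change within the mitochondrial set and not that COX1 stayed constant.

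**Figure D2:**
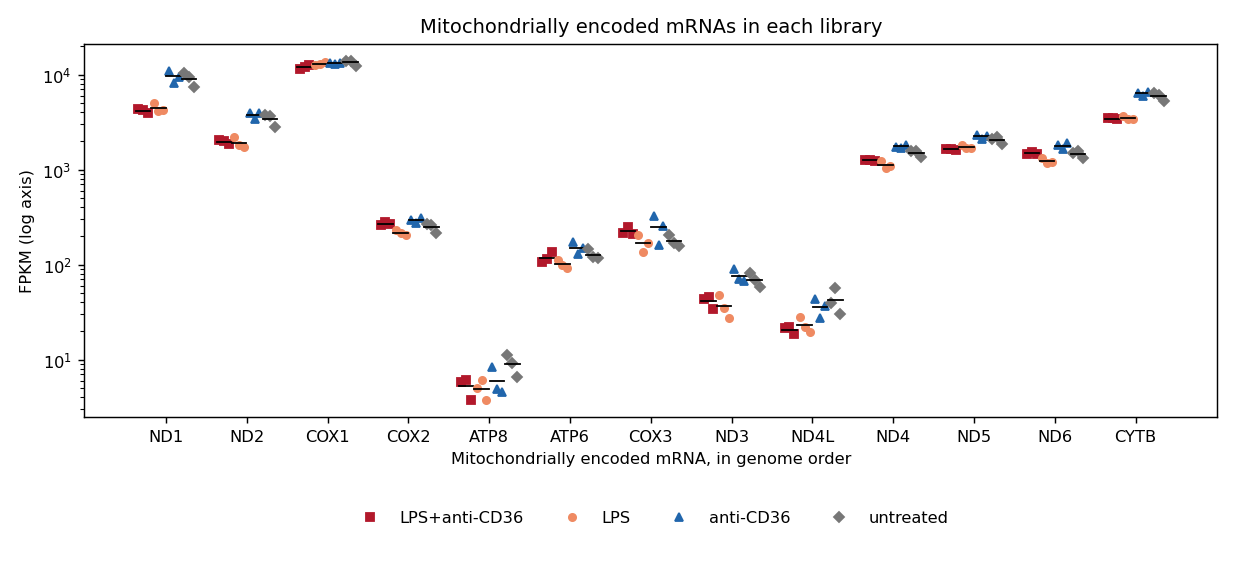
FPKM (log axis) of each mitochondrially encoded mRNA in every library, in the order of the genes on mitochondrial DNA; symbols are groups, points are libraries and short black bars are group means. ND1, ND2, ND3 and CYTB were lower in LPS+anti-CD36 and LPS libraries than in anti-CD36 and untreated libraries, while COX1 stood between 11412 and 13892 FPKM throughout.

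The second comparison of cells with and without LPS, made in the presence of the antibody, shares no library with the first. LPS+anti-CD36 cells set against anti-CD36 cells showed 8 of 13 mitochondrial mRNAs lower and none higher, where 47.5% of all genes passed, 31.3% lower and 16.3% higher. ND1 had 4324, 4248 and 3967 FPKM in LPS+anti-CD36 libraries, against 10980, 8132 and 9493 FPKM in anti-CD36 libraries. Its log2 change was -1.18 (SE 0.15, limma adjusted p = 5.5e-05). CYTB had 3446, 3446 and 3407 FPKM in LPS+anti-CD36 libraries, against 6465, 5962 and 6513 FPKM in anti-CD36 libraries. The groups were far apart, with a log2 change of -0.88 (SE 0.10, limma adjusted p = 2.36e-05). ND2, ND3, ND4L, ND4, ND5 and ND6 changed by -0.93, -0.87, -0.75, -0.48, -0.44 and -0.27, so that all 7 mitochondrial subunits of complex I passed. COX1, with a log2 change of -0.13, did not (SE 0.10, limma adjusted p = 0.302). The same 7 mRNAs (CYTB, ND1, ND2, ND3, ND4, ND4L and ND5) fell in both LPS comparisons, which is 87.5% of each list. How many of all genes fell in both was not counted, so this overlap has no background beside it. The ND4L call was lost without anti-CD36 replicate 1 or LPS+anti-CD36 replicate 3 (limma adjusted p up to 0.0676), and that of ND6 was lost in 9 of 24 alternatives (limma adjusted p up to 0.383).

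How far a mitochondrial mRNA can be told from its nuclear copies differed between members. Stretches of mitochondrial DNA copied into the nucleus are annotated as nuclear genes, and the reads of both can be split or dropped in counting. Of all 100-base windows of each mRNA, the share found unchanged in an annotated nuclear transcript was 0 for ND1, ATP8, ND5, ND6 and CYTB, 3.19% for ND2, 30.8% for COX1 and 60.8% for ND4. It was 97.6% for ND3, 98.5% for ND4L, 99.5% for COX2 and for ATP6, and 99.9% for COX3. These 5 mRNAs were listed at 18.6 to 328 FPKM, and their levels are uncertain for this reason. ATP8, which shares no window, was the lowest of the 13, at 3.73 to 11.0 FPKM. The nuclear copy of ATP6, Gm10925, was itself listed at 247 to 287 FPKM in LPS+anti-CD36 libraries, 292 to 319 FPKM in LPS libraries, 343 to 485 FPKM in anti-CD36 libraries and 334 to 451 FPKM in untreated libraries, above ATP6 in each group. The fall of ND1 and CYTB was measured on sequence with no such exact match in an annotated nuclear transcript. Copies outside the annotation, or with mismatches, were not searched for. With only the 5 mRNAs that share no window, the log2 ratio of the mitochondrial to the nuclear sum differed by -0.66 between LPS+anti-CD36 and anti-CD36 cells and by -0.43 between LPS and untreated cells, an alternative chosen after the data were seen. Between LPS+anti-CD36 and LPS cells the same ratio differed by -0.35.

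Reading frames on mitochondrial DNA can also overlap each other. The last 43 bases of the ATP8 mRNA annotation are the first 43 of ATP6, and ND4L and ND4 share 7 bases. The ATP8 sequence below, from GENCODE M21, is shown because it is short and its overlap with ATP6 (capitals) takes up a large part of it, so that fragments there belong to both genes; whether counting used the strand is not given in the sources used here.
ATP8: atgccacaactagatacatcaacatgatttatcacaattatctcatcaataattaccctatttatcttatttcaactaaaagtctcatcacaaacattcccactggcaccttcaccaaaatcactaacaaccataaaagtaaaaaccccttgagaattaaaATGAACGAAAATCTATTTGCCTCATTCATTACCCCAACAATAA

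The promoters of the nuclear members were searched for motifs, which the choice of members did not use. RefSeq promoter windows on GRCm38.p6, from 250 bases before to 50 after the start, were found for 62 of the 75 genes (67 windows). Read on both strands, the NRF1 motif (GCGCA, any base, then GCGC) stood in 23.9% of them, against 4.60% of 32851 windows of all genes. The ETS motif CCGGAAG stood in 22.4%, against 8.86% of all windows, and the YY1 motif AAGATGGC stood in 14.9%, against 2.75% of all windows. The TATA motif TATAAA stood in 10.4%, against 13.6% of all windows. At least one of the first 3 motifs was present in 53.7% of the members' windows and in 14.7% of all windows. A match describes letters and not binding. The windows of all genes were not limited to genes expressed in these cells. A difference from other expressed genes was therefore not tested. Windows of the 4 nuclear members that were lower with LPS and higher with the antibody added (Ndufa5, Atp5o, Atp5j and Ndufb10), and of AA467197, are shown, with matches in capitals. Ndufa5 and Atp5j have 2 windows each, and the one with the most matches was taken, or the first where they tied.
Ndufa5 (chr6:24527477-24527776, minus strand): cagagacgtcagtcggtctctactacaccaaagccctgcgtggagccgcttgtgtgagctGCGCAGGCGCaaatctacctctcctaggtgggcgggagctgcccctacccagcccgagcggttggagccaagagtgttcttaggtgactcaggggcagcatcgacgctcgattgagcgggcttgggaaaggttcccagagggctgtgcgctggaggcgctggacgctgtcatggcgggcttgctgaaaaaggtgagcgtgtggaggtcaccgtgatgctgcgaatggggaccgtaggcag
Atp5o (chr16:91931581-91931880, minus strand): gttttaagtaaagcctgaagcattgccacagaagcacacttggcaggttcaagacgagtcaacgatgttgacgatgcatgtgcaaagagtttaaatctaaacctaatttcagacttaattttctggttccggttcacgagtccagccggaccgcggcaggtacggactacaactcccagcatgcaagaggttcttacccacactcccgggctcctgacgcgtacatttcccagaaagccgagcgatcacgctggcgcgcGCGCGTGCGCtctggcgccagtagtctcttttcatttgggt
Atp5j (chr16:84834927-84835226, minus strand): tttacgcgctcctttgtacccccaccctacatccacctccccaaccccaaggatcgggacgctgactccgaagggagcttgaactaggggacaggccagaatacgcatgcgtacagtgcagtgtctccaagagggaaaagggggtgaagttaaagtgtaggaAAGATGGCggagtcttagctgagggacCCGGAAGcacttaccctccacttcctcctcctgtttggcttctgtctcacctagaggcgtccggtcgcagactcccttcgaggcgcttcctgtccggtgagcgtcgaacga
Ndufb10 (chr17:24724374-24724673, minus strand): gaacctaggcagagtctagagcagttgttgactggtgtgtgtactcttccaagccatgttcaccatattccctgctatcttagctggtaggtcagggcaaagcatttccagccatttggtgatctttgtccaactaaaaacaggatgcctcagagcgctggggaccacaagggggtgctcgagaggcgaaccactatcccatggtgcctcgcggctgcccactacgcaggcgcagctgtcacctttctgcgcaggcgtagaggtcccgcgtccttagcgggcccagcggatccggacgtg
AA467197 (chr2:122637637-122637936, plus strand): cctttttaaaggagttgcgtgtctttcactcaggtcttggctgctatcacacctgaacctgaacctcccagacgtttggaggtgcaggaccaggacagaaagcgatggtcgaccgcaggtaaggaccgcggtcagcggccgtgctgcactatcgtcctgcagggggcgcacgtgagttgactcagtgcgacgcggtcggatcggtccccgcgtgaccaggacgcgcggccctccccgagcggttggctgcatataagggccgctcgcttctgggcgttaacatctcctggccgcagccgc
Ndufa5 and Atp5o each hold an NRF1 match, and the window shown for Atp5j holds a YY1 and an ETS match. The other window of Ndufa5 also holds an NRF1 match, while the other window of Atp5j and those of Ndufb10 and AA467197 hold none of the 3.

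In the nuclear set, 21 of 75 mRNAs fell with LPS alone and none rose (28.0%, near the 33.1% of all genes). By complex, 9 of 35 members fell in complex I, 3 of 8 in complex III, 2 of 15 in complex IV and 7 of 17 in complex V, with median log2 changes of -0.32, -0.37, -0.30 and -0.41. All LPS libraries lay below all untreated libraries in 14 of the 75 and above them in 0, which held for 32.9% and 16.7% of all genes. Relative to the median of all genes, the nuclear median was -0.18. The count was 45 without LPS replicate 1, 11 without LPS replicate 2, 12 without LPS replicate 3, 11, 10 and 40 without untreated replicate 1, 2 and 3, and 5 under median-of-ratios scaling, where 51.4% of all called genes were higher, against 33.4% on the deposited scale.

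The nuclear members that passed in every alternative that tested them were Ndufb8, Ndufa5, Ndufb3 and Atp5o. Ndufb8 was tested in 23 of 24 alternatives, because it stayed below the filter of 5 FPKM. The barely expressed Cox4i2, counted in the 21 that fell and in complex IV, is described below without a test. Ndufa5, an accessory subunit of the arm of complex I that reaches into the matrix, had 20.2, 18.2 and 17.1 FPKM in LPS libraries, against 35.3, 30.7 and 28.6 FPKM in untreated libraries. Its log2 change was -0.73 (SE 0.11, limma adjusted p = 0.000149), with no overlap between groups. Ndufb8, an accessory subunit of the membrane arm, had 2.19, 1.99 and 2.32 FPKM in LPS libraries, against 3.89, 3.75 and 3.84 FPKM in untreated libraries. It was the least abundant nuclear member of complex I, and its log2 change was -0.61 (SE 0.09, limma adjusted p = 0.000137). Ndufb3, also of the membrane arm, had 110, 98.9 and 86.1 FPKM in LPS libraries, against 186, 150 and 120 FPKM in untreated libraries. The log2 change was -0.61 (SE 0.14, limma adjusted p = 0.00411).

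Of the 7 nuclear core subunits of complex I, which hold its flavin and iron-sulphur clusters, 4 fell with LPS alone, against 33.1% of all genes, among them Ndufv2 by -0.54 and Ndufs7 by -0.68 (limma adjusted p = 0.00724 and 0.00991). In complex III, Uqcrh, the hinge protein that helps to dock cytochrome c1, changed by -0.59 (limma adjusted p = 0.00617). Uqcrc2, a structural core protein of complex III, had 71.2, 70.8 and 71.0 FPKM in LPS libraries, against 87.4, 83.2 and 83.6 FPKM in untreated libraries, and a log2 change of -0.25 (limma adjusted p = 0.0154). Under median-of-ratios scaling the calls of Ndufv2, Ndufs7, Uqcrh and Uqcrc2 were lost (limma adjusted p = 0.0671, 0.0573, 0.0558 and 0.310).

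In ATP synthase, 3 of 4 nuclear subunits of the peripheral stalk, which holds the catalytic head still while the ring turns, fell with LPS alone, as did 2 of 5 of the head, where 33.1% of all genes were lower. Atp5o, the stalk subunit that binds the head, had 9.88, 7.63 and 6.96 FPKM in LPS libraries, against 13.2, 12.0 and 10.5 FPKM in untreated libraries. The log2 change was -0.50 (SE 0.12, limma adjusted p = 0.00361). In transcript sequence, 27.0% of the windows of Atp5o stand in other annotated genes, so its level is less certain than those of Ndufa5 and Ndufb3, which share none. Atp5j, another stalk subunit, and Atp5pb, the stalk's membrane anchor, changed by -0.34 and -0.22 (limma adjusted p = 0.0217 and 0.0197). Atp5a1, which encodes the alpha subunit of the catalytic head, changed by -0.46 (limma adjusted p = 0.00449). The rotary ring subunit genes Atp5g1, Atp5g2 and Atp5g3 make the same mature protein, and 1 of the 3, Atp5g3, fell (log2 change -0.41, limma adjusted p = 0.0215). The Atp5j and Atp5g3 calls were lost without LPS replicate 2, LPS replicate 3, untreated replicate 1 or untreated replicate 2 (limma adjusted p 0.0511 to 0.0868), and the Atp5pb call without untreated replicate 1 or 2 (limma adjusted p 0.0631 and 0.0686). Under median-of-ratios scaling the Atp5a1, Atp5j, Atp5pb and Atp5g3 calls were lost (limma adjusted p 0.0679 to 0.519).

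Complex IV subunits come as isoforms that differ between tissues. Cox4i1, the general form of subunit 4, had 269, 204 and 175 FPKM in LPS libraries, against 273, 232 and 191 FPKM in untreated libraries, with a log2 change of -0.11 (limma adjusted p = 0.616). Cox4i2, the form known from lung and from cells short of oxygen, had 1.14, 0.846 and 0.749 FPKM in LPS libraries, against 1.85, 1.90 and 1.69 FPKM in untreated libraries. It reached 1 FPKM in 9 of the 12 libraries, including all 6 without LPS, so its log2 change of -0.56 is given as a description with no test. It rested on 29, 21 and 20 fragments in LPS libraries, against 79, 45 and 48 in untreated libraries. The muscle forms Cox6a2 and Cox7a1 were low, at 4.69 to 7.60 FPKM and 1.42 to 3.12 FPKM in LPS libraries and at 4.23 to 8.26 FPKM and 2.33 to 4.32 FPKM in untreated libraries. The general forms Cox6a1, Cox7a2 and Cox8a did not pass (log2 changes -0.23, -0.39 and -0.33, limma adjusted p = 0.518, 0.108 and 0.391).

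In LPS+anti-CD36 cells set against anti-CD36 cells, 12 of the 75 nuclear mRNAs fell and 1, Ndufs4, rose, against 31.3% and 16.3% of all genes. The groups were apart with LPS+anti-CD36 lower in 30 of the 75 and higher in 2, against 42.3% and 21.6% of all genes. Ndufb8 had 2.20, 1.95 and 2.62 FPKM in LPS+anti-CD36 libraries, against 3.60, 4.11 and 4.26 FPKM in anti-CD36 libraries, a log2 change of -0.62 (SE 0.09, limma adjusted p = 0.00013). Ndufb3 had 119, 113 and 102 FPKM in LPS+anti-CD36 libraries, against 172, 161 and 163 FPKM in anti-CD36 libraries, a log2 change of -0.57 (SE 0.14, limma adjusted p = 0.00669). These were the nuclear calls that held in every alternative that tested them. Ndufs7 and Atp5a1 changed by -0.67 and -0.41 (limma adjusted p = 0.012 and 0.00948). Of the nuclear members lower in one LPS comparison, 10 were lower in both: 47.6% of the 21 without the antibody and 83.3% of the 12 with it. Cox4i2, described here without a test, is among the 12 and the 10. The share of all genes lower in both was not counted. The count of 13 was 3 without anti-CD36 replicate 1, 4 without anti-CD36 replicate 3, 8, 5 and 4 without LPS+anti-CD36 replicate 1, 2 and 3, 21 and 8 without LPS replicate 1 and 2, 7 without untreated replicate 2, and 3 under median-of-ratios scaling. The Ndufs7 call was lost without anti-CD36 replicate 1 (limma adjusted p = 0.0546), and that of Ndufs4 on leaving out any of 8 libraries (limma adjusted p 0.0516 to 0.124).

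**Figure D3:**
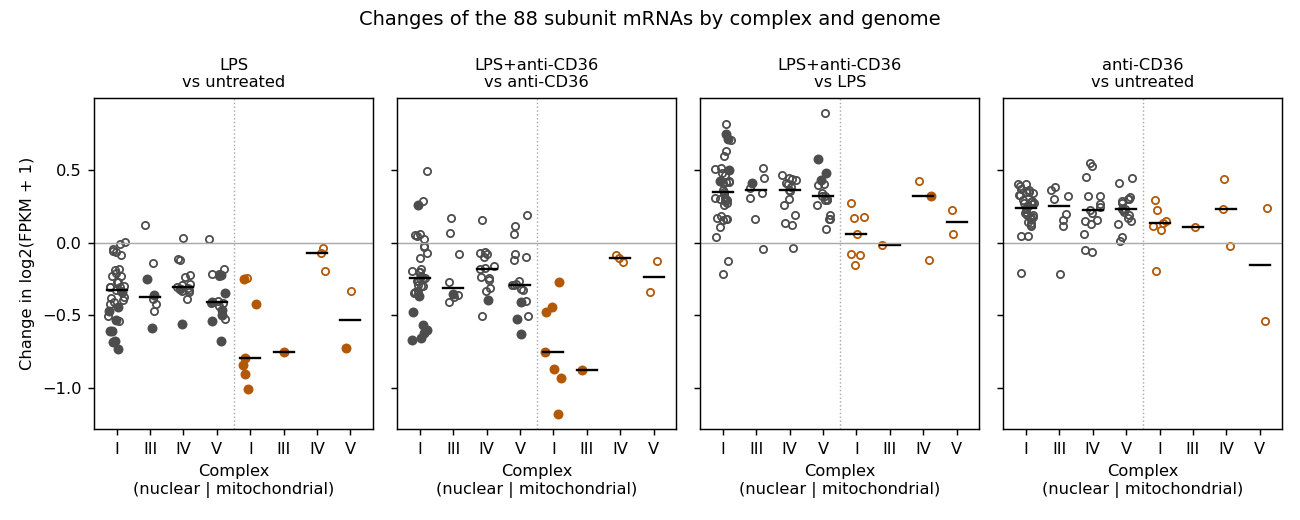
Change in log2(FPKM + 1) of every subunit mRNA in 4 comparisons (panels), by complex on the horizontal axis, with nuclear members (grey) left and mitochondrial members (orange) right of the dotted line; filled points passed an adjusted p under 0.05 and black bars are medians. In both LPS comparisons the mitochondrial complex I mRNAs had medians of -0.79 (LPS against untreated) and -0.75 (LPS+anti-CD36 against anti-CD36), while the 3 mitochondrial complex IV mRNAs had medians of -0.07 and -0.11.

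LPS+anti-CD36 cells set against LPS cells had 8 of 75 nuclear mRNAs higher and none lower, where 15.5% of all genes passed, 7.34% higher and 8.14% lower. The share of 10.7% is near that background, although the median nuclear log2 change was 0.34, against 0.02 for all genes, and 71 of 75 changes were above 0. All LPS+anti-CD36 libraries lay above all LPS libraries in 14 of the 75 and below them in 0, which held for 19.7% and 16.4% of all genes. The 81 cytosolic ribosomal protein genes had a median of 0.35 in the same comparison, and with the trend on GC content and transcript length removed the nuclear median was 0.16 and the mitochondrial median 0.10, against 0.34 and 0.06 on the deposited scale. The difference between the sets was not tested. Of the mitochondrial mRNAs 1 of 13 passed, COX2, which had 263, 281 and 267 FPKM in LPS+anti-CD36 libraries, against 229, 214 and 205 FPKM in LPS libraries. Its log2 change was 0.32 (limma adjusted p = 0.0494), it shares nearly all its sequence with nuclear copies, and its call was lost in 17 of 24 alternatives (limma adjusted p up to 0.165).

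Ndufa5 gave the one nuclear call here that held in every alternative. It had 36.4, 29.4 and 29.6 FPKM in LPS+anti-CD36 libraries, against 20.2, 18.2 and 17.1 FPKM in LPS libraries. The groups did not overlap, and the log2 change was 0.74 (SE 0.11, limma adjusted p = 0.00127), a fold of 1.67 on the scale of FPKM + 1. For comparison, Ndufa5 had 38.5, 34.2 and 37.0 FPKM in anti-CD36 libraries and 35.3, 30.7 and 28.6 FPKM in untreated libraries. The interaction of LPS and antibody was 0.53 for Ndufa5, the smallest p of any member, and did not pass (SE 0.15, limma adjusted p = 0.191). The same LPS libraries serve in both this comparison and that of LPS with untreated cells, so opposite changes in these comparisons are not independent.

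The other nuclear members that were higher in LPS+anti-CD36 than in LPS cells were Ndufs4, Ndufb9, Ndufb10, Uqcrb, Atp5j, Atp5o and Atp5e. Ndufs4, an accessory subunit that helps to complete complex I and whose loss in mice causes a fatal brain disease, had 38.2, 37.3 and 34.9 FPKM in LPS+anti-CD36 libraries, against 30.4, 26.3 and 25.1 FPKM in LPS libraries. Its log2 change was 0.42 (SE 0.09, limma adjusted p = 0.0133), with no overlap. Atp5j had 47.1, 46.5 and 41.3 FPKM in LPS+anti-CD36 libraries, against 35.3, 31.4 and 29.5 FPKM in LPS libraries, a log2 change of 0.48 (SE 0.11, limma adjusted p = 0.0163). Atp5o had 11.0, 11.2 and 11.5 FPKM in LPS+anti-CD36 libraries, against 9.88, 7.63 and 6.96 FPKM in LPS libraries, a log2 change of 0.43 (SE 0.12, limma adjusted p = 0.0297). The membrane-arm subunits Ndufb9 and Ndufb10 changed by 0.71 and 0.50, the complex III subunit Uqcrb by 0.41 and the epsilon subunit of the ATP synthase head, Atp5e, by 0.58. Without LPS replicate 2, LPS replicate 3, LPS+anti-CD36 replicate 1 or LPS+anti-CD36 replicate 2, Ndufa5 was the 1 nuclear member still called. The count was 40 without LPS replicate 1 and 15 without untreated replicate 3, and 5 without LPS+anti-CD36 replicate 3, any anti-CD36 library or untreated replicate 2. Over all genes, 1970 were higher without LPS replicate 1, against 754 with all libraries.

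**Figure D4:**
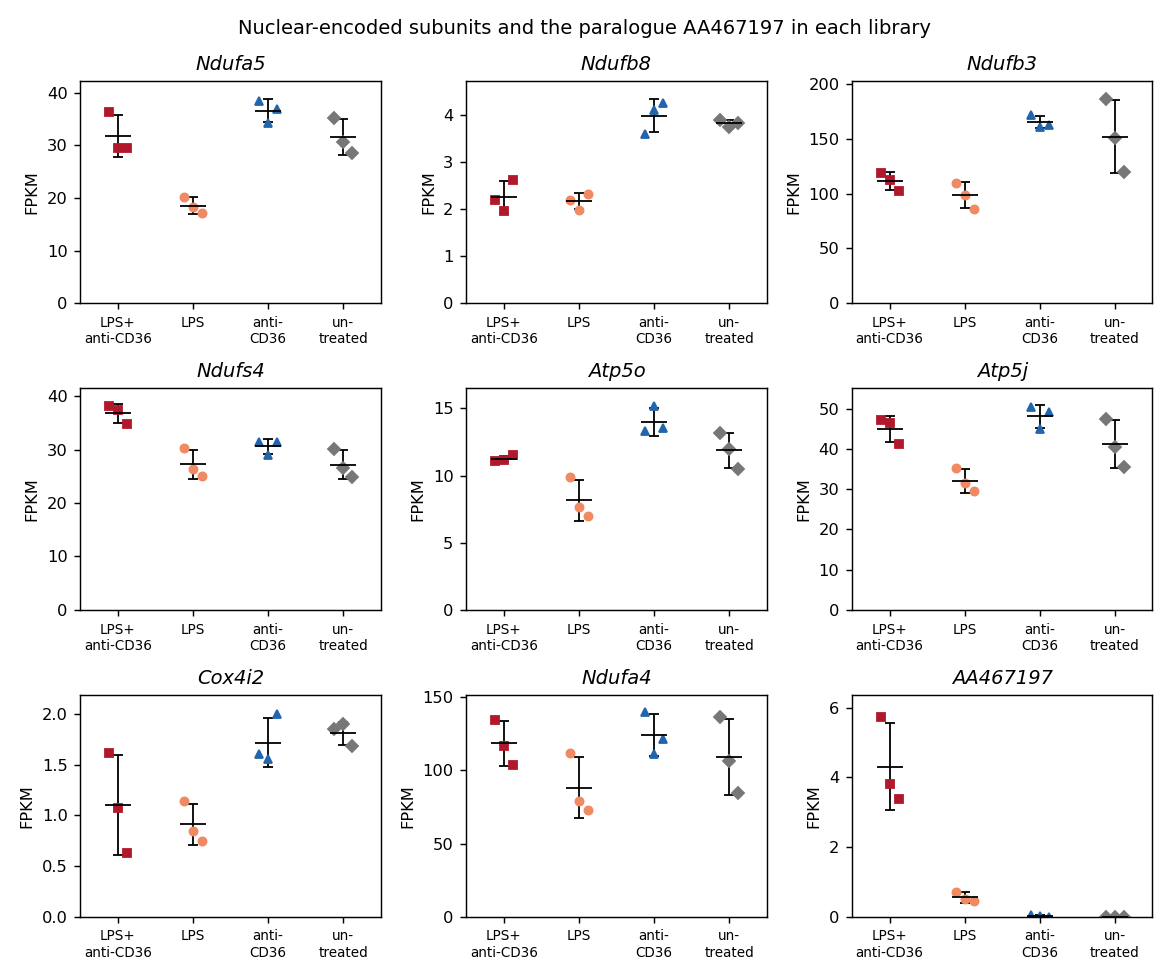
FPKM of 8 nuclear-encoded subunit mRNAs and of the Ndufa4 paralogue AA467197 in every library, with group on the horizontal axis; points are libraries, horizontal bars are means and error bars are SDs (n = 3). Ndufa5 was 29.4 to 36.4 FPKM in LPS+anti-CD36 libraries and 17.1 to 20.2 FPKM in LPS libraries, while Ndufb8 stayed between 1.95 and 2.62 FPKM in both.

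In anti-CD36 cells set against untreated cells, 0 of 75 nuclear and 0 of 13 mitochondrial mRNAs passed with limma, where 0.341% of all genes did (0.195% lower, 0.146% higher). At an unadjusted limma p under 0.05 there were 7 nuclear and 4 mitochondrial members, against 1969 of all 10276 genes. The nuclear median log2 change was 0.23, with 71 of 75 above 0, and the cytosolic ribosomal protein genes had a median of 0.24. With the trend on GC content and length removed the nuclear median was 0.11. The smallest adjusted p in each set were those of Uqcrc2 (log2 change -0.22, limma adjusted p = 0.18) and ND6 (0.29, limma adjusted p = 0.171). ND6 had 1818, 1639 and 1891 FPKM in anti-CD36 libraries, against 1475, 1557 and 1328 FPKM in untreated libraries, so its groups did not overlap. Over the nuclear members the groups were apart in 1 downwards and 6 upwards, against 10.5% and 12.1% of all genes.

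For the interaction, which asks whether the response to LPS differed with the antibody present, 0 of 75 nuclear and 0 of 13 mitochondrial members passed with limma, where 1.28% of all genes did (0.788% below 0, 0.496% above 0). At an unadjusted limma p under 0.05 there was 1 nuclear member, Ndufa5, and 0 mitochondrial members, against 884 of all 10276 genes.

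A paralogue of a complex IV subunit was measured beside the members. Ndufa4, first assigned to complex I and now counted in complex IV, had 134, 117 and 104 FPKM in LPS+anti-CD36 libraries, 112, 79.4 and 73.0 FPKM in LPS libraries, 140, 111 and 121 FPKM in anti-CD36 libraries and 136, 106 and 84.4 FPKM in untreated libraries, with no call in any comparison. AA467197, the mouse counterpart of human C15orf48, encodes a related protein that in human cells takes the place of NDUFA4 during inflammation. It gave 254, 185 and 198 fragments in LPS+anti-CD36 libraries, 28, 19 and 18 in LPS libraries, 2, 1 and 0 in anti-CD36 libraries and 0 in each untreated library. It passed the filter on low values only through the LPS+anti-CD36 libraries, so its values are a description with no test.

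In FPKM, AA467197 stood at 5.73, 3.82 and 3.38 in LPS+anti-CD36 libraries, against 0.720, 0.501 and 0.442 in LPS libraries. Taken from summed fragments and depth, it was 7.61-fold higher in LPS+anti-CD36 than in LPS cells. Against untreated cells, set at a floor of 3 fragments over the group, it was at least 203-fold higher in LPS+anti-CD36 cells and at least 26.7-fold higher in LPS cells. The ratio of LPS+anti-CD36 to anti-CD36 cells was 166, with a 95% interval of 56.7 to 809 that covers counting error only. At 3.38 to 5.73 FPKM it remained far below Ndufa4, at 104 to 134 FPKM, in the same LPS+anti-CD36 libraries.

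Atpif1, the inhibitor that keeps ATP synthase from running in reverse, had 37.3, 32.6 and 31.9 FPKM in LPS+anti-CD36 libraries, 27.6, 22.1 and 19.5 FPKM in LPS libraries, 46.0, 40.1 and 44.2 FPKM in anti-CD36 libraries and 43.4, 35.9 and 29.4 FPKM in untreated libraries. It fell with LPS alone (log2 change -0.62, limma adjusted p = 0.00405), a call that held in every alternative. It was higher in LPS+anti-CD36 than in LPS cells (0.55, limma adjusted p = 0.0299), a call lost in 7 of 24 alternatives (limma adjusted p up to 0.12).

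Genes that work with the subunits were counted from fixed lists. Of the 4 subunit genes of complex II, which feeds electrons from succinate and is nuclear throughout, 3 fell with LPS alone, where 33.1% of all genes were lower. Sdhd, its membrane anchor, had 145, 115 and 102 FPKM in LPS libraries, against 258, 223 and 174 FPKM in untreated libraries, a log2 change of -0.85 (SE 0.15, limma adjusted p = 0.000616). Of 16 tested genes of electron carriers, 5 fell and 1 rose with LPS alone, where 33.1% of all genes were lower and 16.6% higher. Of 46 tested assembly factors, 16 fell and 2 rose with LPS alone, and 5 were higher and 2 lower in LPS+anti-CD36 than in LPS cells. The 34.8% that fell is near the 33.1% of all genes, and the 10.9% that were higher with the antibody added stand beside 7.34% of all genes. The inserter Cox18, which helps to place COX2 in the membrane, was among those that rose, by 0.67 (limma adjusted p = 0.000123). Of 26 genes of mitochondrial DNA upkeep and gene expression, 9 fell and 2 rose with LPS alone, and the 34.6% that fell is again near 33.1%.

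Over these 26 genes, 14 changes with LPS alone were below 0 and 12 above, from -0.81 to 0.53. Their median was -0.12, against -0.14 for all genes. Tfam, Twnk, Polg and Polrmt, which act directly on mitochondrial DNA or RNA, are described because their p was among the smallest. The 2 genes that rose are not described. Tfam, which packages mitochondrial DNA and starts its transcription, had 14.9, 15.5 and 15.3 FPKM in LPS libraries, against 21.2, 20.6 and 21.1 FPKM in untreated libraries. Its log2 change was -0.43 (SE 0.07, limma adjusted p = 0.00023). Twnk, the mitochondrial DNA helicase, and Polg, the mitochondrial DNA polymerase, changed by -0.72 and -0.59 (limma adjusted p = 7.07e-05 and 2.98e-05). Polrmt, the mitochondrial RNA polymerase, changed by -0.46 in LPS+anti-CD36 against anti-CD36 cells (limma adjusted p = 0.00121). Among the mitochondrial ribosomal proteins, 35 of 78 fell with LPS alone and 16 of 78 were higher in LPS+anti-CD36 than in LPS cells (44.9% and 20.5%, against 33.1% and 7.34% of all genes), led by Mrps6 (-1.47) and Mrpl18 (-1.22) for LPS alone. Of 81 cytosolic ribosomal protein genes, 1 fell with LPS alone (1.23%, against 33.1% of all genes).

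Of 9 tested transcriptional regulators of respiratory genes, 6 fell with LPS alone, where 33.1% of all genes were lower. Nrf1, a factor that binds many nuclear respiratory gene promoters, had 3.04, 2.95 and 2.84 FPKM in LPS libraries, against 4.44, 4.87 and 4.16 FPKM in untreated libraries, a log2 change of -0.48 (SE 0.07, limma adjusted p = 0.00023). Ppargc1b, a coactivator of mitochondrial biogenesis, had 2.18, 2.00 and 1.79 FPKM in LPS libraries, against 3.56, 4.11 and 3.93 FPKM in untreated libraries, a log2 change of -0.70 (SE 0.09, limma adjusted p = 3.18e-05). Its relative Ppargc1a was listed at 0 in all libraries. Myc had 8.74, 8.01 and 6.82 FPKM in LPS libraries, against 0.252, 0.147 and 0.163 FPKM in untreated libraries. It passed the filter only through the libraries with LPS, so this is a description with no test.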

How the data were processed

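Bulk RNA-seq of 12 RAW264.7 libraries (4 groups of 3) was used. FPKM values per gene were made and deposited by the authors, with 1 column per library and replicates not pooled. HISAT2 2.0.5 and the builds mm39 and hg38 are named, without roles, per the submitters' processing notes. The counter, annotation, strand setting and mRNA selection are not given in the sources used here.

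Of 31801 entries, 82 repeats were dropped. Genes at 1 FPKM or more in at least 3 libraries were tested on log2(FPKM + 1) with limma 3.58.1 (R 4.3.3; trended variance, 4 group means, Benjamini-Hochberg adjustment over 10276 genes). Il6 was left out because its 6 values without LPS equalled those of Gm10874. A log2(FPKM + 1) change understates the change of low genes. Depth was recovered from FPKM steps with GENCODE M21 lengths, with 93.9 to 94.4% of values whole within 0.02 fragments; fragment counts here come from those steps, and intervals and floors cover counting error only.

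Members, gene lists and motifs were chosen with earlier results of these data known. All mitochondrial members were named. Other genes were picked from the 3 nuclear members of smallest p per complex and comparison and the 4 called members of largest change in each direction. The isoform pairs and paralogues, Atpif1, and up to 3 called genes of smallest p per list and comparison also belonged to that rule. Not every gene under it is described: Cox5a, Cox7b, Uqcrc1, Atp5c1, Coq10b and Ndufaf4 are among those left out. Ndufv2, Atp5g3 and the uncalled Atp5g1 and Atp5g2 fall outside that rule and were chosen after their values were seen. The sets described within complex I and ATP synthase follow subunit roles. Alternatives changed the pseudocount, filter, scaling, groups fitted, replicate block, GC and length trend, or left out a library. The fit was tested on simulated data. Tables were made with Python 3.11.15, numpy 2.4.6, pandas 2.3.3 and scipy 1.17.1, and plots with matplotlib 3.10.9.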

Additional observations from a re-analysis of the deposited data

Results flagged for a closer look

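AA467197, the Ndufa4 paralogue, was flagged for its interaction value. The interaction of LPS and anti-CD36 was 1.72 on the log2(FPKM + 1) scale and ran from 0.730 to 2.45 over the alternatives. With 0 fragments in untreated libraries, the fold of LPS without the antibody has only a lower limit, 26.7. With the antibody the fold was 166 (95% interval 56.7 to 809, counting error only). A difference between these folds is therefore not shown. The gene passed the filter on low values only through the LPS+anti-CD36 libraries, so no p is given and the value is a description. All 3 LPS+anti-CD36 libraries, at 3.38 to 5.73 FPKM, lay above all 3 LPS libraries, at 0.442 to 0.720 FPKM, while anti-CD36 and untreated libraries held 3 and 0 fragments in all.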

How the results depend on the processing

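No call of a member or of Atpif1 changed sign under any alternative that tested it. Calls of genes from the fixed lists were not followed through the alternatives. Counts of nuclear calls moved widely, and the cause was not tested. Over all genes, LPS against untreated cells gave 3403 lower and 1710 higher. These were 3361 and 1538 with TPM, 2226 and 2352 with median-of-ratios and 3750 and 1434 with non-mitochondrial scaling. They were 2469 and 1358 with only these groups and 4218 and 2094 with the GC and length trend removed. LPS+anti-CD36 against LPS cells gave 836 and 754. These were 641 and 619 of 18142 genes with no filter, 965 and 759 with median-of-ratios scaling and 546 and 393 with only these groups. For LPS against untreated cells, the nuclear count of 21 was 34 with TPM scaling, 5 with median-of-ratios scaling, 40 scaled without mitochondrial mRNAs, 9 with only the groups compared and 43 with the GC and length trend removed, and the mitochondrial count of 8 was 5 with median-of-ratios scaling. For LPS+anti-CD36 against LPS cells, the nuclear count of 8 was 3 with no filter, 5 with median-of-ratios scaling and 3 with only the groups compared; the mitochondrial count of 1 was 0 with a pseudocount of 5, no filter, TPM, median-of-ratios or non-mitochondrial scaling, or only the groups compared. For LPS+anti-CD36 against anti-CD36 cells, the nuclear count of 13 was 6 with no filter, 28 with TPM scaling, 3 with median-of-ratios scaling, 34 scaled without mitochondrial mRNAs, 30 with only the groups compared and 43 with the trend removed. Over all genes, LPS+anti-CD36 against anti-CD36 cells gave 3212 lower and 1670 higher. These were 3304 and 1954 of 18142 with no filter, 3383 and 1434 with TPM and 2211 and 2252 with median-of-ratios scaling. They were 3851 and 1283 scaled without mitochondrial mRNAs, 3977 and 1970 with only these groups and 4087 and 2071 with the trend removed. The nuclear interaction count of 0 was 1 with the trend removed, where 235 of all genes were below 0 and 135 above. Median-of-ratios scaling moved the share of called genes that were higher from 34.2% to 50.5% for LPS+anti-CD36 against anti-CD36 cells, and for LPS+anti-CD36 against LPS cells that share, 47.4%, was 32.8% with TPM scaling and 29.1% scaled without mitochondrial mRNAs.

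The log2 ratio of mitochondrial to nuclear sums, -0.11 for LPS against untreated cells and -0.34 for LPS+anti-CD36 against anti-CD36 cells, was -0.43 and -0.66 with only mitochondrial members that share no window. For anti-CD36 against untreated cells, -0.15, it was -0.0016 as a difference of medians over members.

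With the replicate block, nuclear counts were 50 for LPS against untreated, 12 for anti-CD36 against untreated, 47 for LPS+anti-CD36 against LPS, 36 for LPS+anti-CD36 against anti-CD36 and 1 for the interaction, and mitochondrial counts were 1 for anti-CD36 against untreated and 2 for LPS+anti-CD36 against LPS. With the block and the trend removed, nuclear counts were 63, 2, 37, 54 and 1 in the same order, and the mitochondrial count for anti-CD36 against untreated was 1. Over all 10276 genes, the block gave 4134 lower and 1997 higher for LPS and 629 and 535 for anti-CD36, each against untreated. It gave 1757 and 1888 for LPS+anti-CD36 against LPS, 4002 and 2020 against anti-CD36 and 141 and 71 for the interaction. With the trend also removed these were 4642 and 2310, 563 and 395, 1720 and 1812, 4525 and 2334, and 337 and 203. Calls thus rose over all genes, and a difference between the nuclear set and all genes was not tested. No label says that libraries of the same number pair. In deviations from group means, 10 of 18 same-number pairs correlated above 0.1, and 7 of 12 libraries correlated best with their own number. Same-number correlations were 0.446 to 0.784 for replicate 1, -0.317 to 0.433 for replicate 2 and -0.0653 to 0.811 for replicate 3. Replicate 1 also had the highest nuclear sum in each group. What the replicate 1 libraries have in common was not tested.

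Leaving out 1 library gave nuclear counts of 10 to 45 for LPS against untreated, 1 to 40 for LPS+anti-CD36 against LPS and 3 to 21 for LPS+anti-CD36 against anti-CD36, and mitochondrial counts of 6 to 11, 0 to 2 and 6 to 9; those for anti-CD36 against untreated and the interaction stayed at 0. The log2 ratio ranged over -0.24 to 0.026 for LPS against untreated cells, -0.52 to -0.25 for LPS+anti-CD36 against LPS, -0.42 to -0.26 for LPS+anti-CD36 against anti-CD36 and -0.25 to -0.087 for anti-CD36 against untreated. Over all genes, LPS against untreated gave 3525 lower and 1922 higher without LPS replicate 1, and 2800 and 1498 without untreated replicate 2. LPS+anti-CD36 against LPS gave 1995 lower and 1970 higher without LPS replicate 1, and 311 and 257 without LPS replicate 2. LPS+anti-CD36 against anti-CD36 gave 3601 and 1841 without LPS replicate 1, and 2952 and 1456 without anti-CD36 replicate 1. ATP8, Cox4i2 and Cox7a1 rested on as few as 26, 20 and 24 fragments in a library.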
